A study of Mus musculus with 9 samples.

Results

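The histone genes of the mouse were followed in RNA-seq of whole brain from young and old mice. The count table held 80 protein-coding histone genes among 49315 gene IDs. They were chosen by symbol alone, with no measured value in the rule. Of these, 65 carry a cluster symbol (Hist1 to Hist4) and are called cluster genes here, and 15 are variant genes (H2af, H3f3a, H3f3b and H1f symbols). Another 5 pseudogenes matched the pattern and were left out, and Hist1h2bm and Hist1h2bh had no row in the table analysed here.

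All mice were male wild-type C57BL/6J with no genetic change or treatment. The young group was 5 mice given as 3 months old in the labels and the old group was 4 mice of 33 months, with 1 polyA-selected library per mouse. The transcriptome was measured in the study to set mRNA changes with age beside changes in proteins and their modifications. The libraries held between 14229259 and 21150439 counted reads. Markers of neurons (Snap25, 1857 to 2139 CPM) and astrocytes (Aqp4, 153 to 220) were present in all 9 libraries. Values are CPM, the reads of a gene scaled to a common library size with TMM factors, unless said otherwise, and a log2 fold change is old over young.

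Histones package DNA into nucleosomes, with the core histones H2A, H2B, H3 and H4 inside the particle and the linker histone H1 at the DNA entry site. The replication-dependent genes lie in clusters, have as a rule no introns and are transcribed mainly in S phase. Their mRNA normally ends a few bases after a conserved stem-loop, which binds the stem-loop binding protein Slbp, and carries no poly(A) tail. Variant histones such as H3.3, H2A.Z, macroH2A and H1.0 are made outside S phase from polyadenylated mRNA and replace the canonical proteins in cells that no longer divide, neurons among them. PolyA selection therefore retains variant mRNA, and retains cluster mRNA where a poly(A) tail was added.

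The stem-loop was searched in annotated transcripts as the letters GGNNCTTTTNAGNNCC on the transcript strand. It was found in 42 of the 65 cluster genes (64.6%), in 1 of the 15 variant genes (6.67%) and in 70 of all 21668 protein-coding genes with a transcript (0.323%). In all 43 histone genes that had it, the match lay in the 3′ UTR, after the stop codon. Of the 23 cluster genes without a match, 13 have a transcript model with no base after the coding sequence. Hist1h2af and Hist1h2ah have only 1 and 2 bases there. In all of these the letters could not be found after the stop codon. The sequences of 6 measured genes and of 1 gene with a short annotated end are shown, 5′ to 3′, because most cluster genes with enough reads to be tested have a long annotated stretch after this element. Capitals mark the searched letters. 
Hist1h1c: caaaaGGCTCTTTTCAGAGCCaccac
Hist3h2a: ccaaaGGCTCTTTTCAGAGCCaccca
Hist3h2ba: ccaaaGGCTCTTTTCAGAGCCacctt
Hist1h4i: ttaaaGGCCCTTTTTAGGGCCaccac
Hist2h4: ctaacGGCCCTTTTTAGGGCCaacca
H2afx: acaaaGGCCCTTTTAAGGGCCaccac
Hist1h2bj: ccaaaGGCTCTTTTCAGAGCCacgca

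On GRCm38 these elements lie at chr13:23739507-23739532 (+ strand) for Hist1h1c, chr11:58955167-58955192 (+) for Hist3h2a and chr11:58949344-58949369 (+) for Hist3h2ba. They lie at chr13:22040961-22040986 (- strand) for Hist1h4i, chr3:96262934-96262959 (-) for Hist2h4, chr9:44335235-44335260 (+) for H2afx and chr13:22043633-22043658 (+) for Hist1h2bj. The annotated transcript goes on after the core for 840 bases in Hist1h1c, 1643 in Hist3h2a, 169 in Hist3h2ba, 330 in Hist1h4i, 1257 in Hist2h4 and 822 in H2afx. In Hist1h2bj it goes on for 23 bases.

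Few cluster genes gave enough reads to be compared. After the filter on low counts, 12 of the 65 cluster genes and 10 of the 15 variant genes were tested, among 18492 genes in all. Reads of 10 cluster genes and of the variant H2afb1 were 0 in all 9 libraries, which allows up to 3 counts in each. Reads that map to several near-identical copies were not counted, so a low count of a cluster gene is uncertain. The 9 tested cluster genes with the core had between 46 and 1861 annotated bases after it (median 840), and 8 of them had over 100. Among the 33 untested cluster genes with the core the range was 3 to 4884 bases (median 42), with 17 of them within 50 bases and 13 over 100. A poly(A) signal (AATAAA or ATTAAA) after the core was present in 7 of the 9 and in 8 of the 33. The filter uses counts that are not divided by length. The median exon length was 1358 bases in the 12 tested and 520 in the 53 untested cluster genes. The part of length in which genes were tested was not itself tested. These are descriptions of the annotation, and whether the reads came from extended transcripts was not tested.

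**Figure D1:**
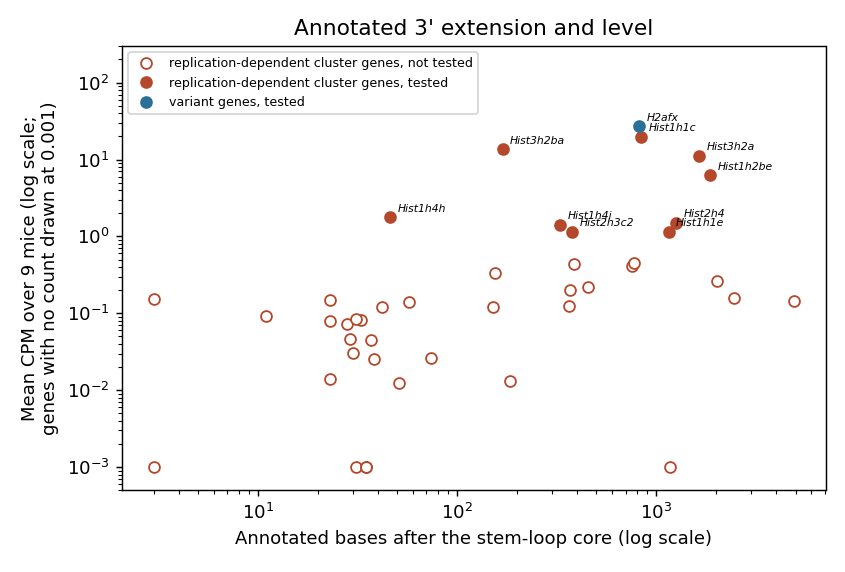
Mean CPM over the 9 mice (y axis, log scale) against the number of annotated transcript bases after the stem-loop core (x axis, log scale) for the histone genes with the core. Each point is a gene, filled where it was tested and open where it was not, and genes with no count are drawn at 0.001. The tested cluster genes sit to the right, 8 of 9 over 100 bases, while untested genes lie at both short and long distances. CPM is not divided by transcript length.

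All 12 tested cluster genes had lower estimates in old brain, and 2 passed the test. Log2 fold changes ranged from -0.64 to -0.12 with a median of -0.30, against a median over all tested genes near 0 (-9.2e-05), of which 50.0% were below 0. The count of 12 covers only genes that passed the filter on low counts. Without that filter 36 of 55 cluster genes with any read had an estimate below 0, most of them resting on few reads, with a median of -0.34. Hist1h1c and Hist3h2a fell with an adjusted p under 0.05 (edgeR quasi-likelihood test, Benjamini-Hochberg over all 18492 genes). Across all genes 4.83% were called lower and 11.0% in either direction. At an unadjusted p under 0.05, 6 of the 12 were lower, against 12.4% of all genes. No cluster gene also exceeded an absolute log2 fold change of 0.58, which 2.68% of all genes did. Of the 10 tested variants, 8 estimates were below 0 and 2 above, with a median of -0.035, and 0 passed the edgeR test. An unadjusted p under 0.05 was seen for 2 of them, H2afy2 (lower) and H3f3b (higher), where 26.0% of all genes had one in either direction. The 2 cluster genes that passed were also the only 2 of the 12 without overlap between the ages. No variant was without overlap, against 6.08% of all genes with every old mouse below every young mouse and 6.5% with every old mouse above.

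**Figure D2:**
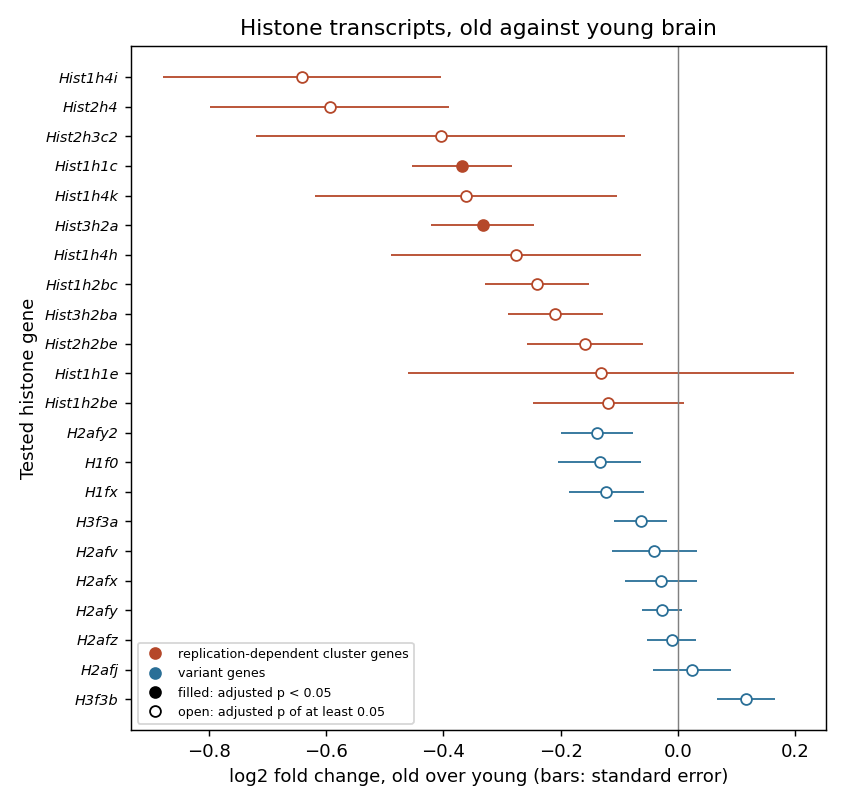
Log2 fold change of old over young brain (x axis) for the 22 tested histone genes, ordered by value, with standard errors as bars. Filled points have an adjusted p under 0.05. All cluster genes lie left of 0, from -0.64 to -0.12, while the variants lie between -0.14 and 0.12.

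Hist1h1c encodes a linker histone (H1f2 in the RefSeq table) and lies as a single exon at chr13:23738808-23740367 (+). The young mice 1 to 5 had 19.0, 22.3, 19.8, 23.1 and 25.5 CPM, and the old mice 1, 3, 4 and 5 had 15.7, 17.3, 18.1 and 16.8. Every old mouse was below every young mouse. The means were 21.9 ± 2.61 (SD, n = 5) and 17.0 ± 1.02 (SD, n = 4), a log2 fold change of -0.37 ± 0.085 (SE) with an edgeR adjusted p of 0.013. The 95% interval ran from -0.55 to -0.19. Leaving out any mouse kept it past the threshold, with adjusted p between 0.0094 and 0.043. On log2(TPM + 1) and log2(TPM + 0.1) limma gave an adjusted p of 0.057, just over the threshold.

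Hist1h1e, the other tested cluster linker histone, had 7 to 35 reads per library and a log2 fold change of -0.13 ± 0.33 (SE), with an edgeR adjusted p of 0.85. It shares 496 exon bases on the same strand with Hist1h2be, so the 2 genes' reads cannot be fully separated. Summed over the 6 cluster H1 genes, the young mice had 20.5 to 27.7 CPM and the old mice 16.9 to 20.0. These ranges did not overlap, and Hist1h1c made up most of the sum.

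Hist3h2a is the only cluster H2A gene of 18 that was tested (H2aw in the RefSeq table, chr11:58954685-58956830, +). The young mice had 11.0, 12.8, 11.5, 13.3 and 13.3 CPM, and the old mice had 10.7, 8.67, 10.3 and 9.57. The lowest young mouse and the highest old mouse were close, at 11.0 and 10.7, but the groups did not overlap. The means were 12.4 ± 1.07 (SD, n = 5) and 9.80 ± 0.88 (SD, n = 4), with a log2 fold change of -0.33 ± 0.088 (SE) and an edgeR adjusted p of 0.027. The call was less firm than that of Hist1h1c. It was lost when young mouse 2, 4 or 5 or old mouse 3 or 5 was left out, with adjusted p between 0.052 and 0.071, and on log2(TPM + 1) with limma (adjusted p 0.14). Hist3h2a shares 708 exon bases on the same strand with Trim17, an E3 ubiquitin ligase gene, whose level was 7.54 CPM in young and 5.92 in old mice. Trim17 had a log2 fold change of -0.35 and an edgeR adjusted p of 0.039. The part of these shared bases in either value was not tested.

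The promoters of the 2 genes that passed are shown, from 250 bases before to 50 bases after the start in RefSeq (GRCm38.p6), with CCAAT boxes (CCAAT or ATTGG, either strand) in capitals. This box is a common element of histone promoters and is bound by the factor NF-Y.
Hist1h1c, chr13:23738557-23738856 (+): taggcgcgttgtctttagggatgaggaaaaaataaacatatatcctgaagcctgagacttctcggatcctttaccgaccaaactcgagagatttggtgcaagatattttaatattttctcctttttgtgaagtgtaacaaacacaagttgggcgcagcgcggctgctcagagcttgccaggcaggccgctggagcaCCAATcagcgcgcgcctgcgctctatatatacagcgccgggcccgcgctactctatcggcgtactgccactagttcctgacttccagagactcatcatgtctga
Hist3h2a, chr11:58954435-58954734 (+): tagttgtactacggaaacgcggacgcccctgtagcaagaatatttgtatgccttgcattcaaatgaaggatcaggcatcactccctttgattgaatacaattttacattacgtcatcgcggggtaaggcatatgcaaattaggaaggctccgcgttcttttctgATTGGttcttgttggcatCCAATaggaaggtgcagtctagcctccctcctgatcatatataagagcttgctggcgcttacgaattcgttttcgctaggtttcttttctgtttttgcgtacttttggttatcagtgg

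A CCAAT box was found in 51 of the 60 cluster genes with a promoter in the table (85%), in 10 of 14 variant genes (71.4%) and in 41.1% of all 27025 genes. TATAAA or its reverse TTTATA was found in 35 of the 60 cluster genes (58.3%), in 1 of 14 variants (7.14%) and in 15.7% of all genes. Among tested genes with a promoter in the table, a CCAAT box was found in 6 of 9 cluster and 6 of 9 variant genes. TATAAA or TTTATA was found in 4 of these 9 cluster genes and 1 of these 9 variants. Neither printed promoter holds the letters TATAAA or TTTATA. Hist1h1c does hold tatatata and Hist3h2a tatataag, similar letters that the search did not count. The lack of a match therefore does not show that a TATA element is missing. A match is a description of the letters, not a bound site.

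The cluster H2B genes had the highest summed CPM, and 4 of 16 were tested. Hist1h2bc (chr13:23684199-23692908, +) had 21.7, 21.8, 18.7, 26.3 and 20.4 CPM in young mice and 16.9, 19.7, 17.9 and 19.7 in old mice. Young mouse 3 lay below 2 of the old mice, so the groups overlapped. Its log2 fold change was -0.24 ± 0.089 (SE), with an edgeR adjusted p of 0.10. Hist3h2ba (chr11:58948920-58949533, +), which sits near Hist3h2a, had the highest level per kilobase of exon among cluster genes, at 22.0 CPM per kilobase. It ranged from 13.3 to 15.7 CPM in young and from 11.5 to 13.8 in old mice, with a log2 fold change of -0.21 ± 0.080 (SE) and an edgeR adjusted p of 0.11. Hist2h2be had a log2 fold change of -0.16 ± 0.099 (SE) and Hist1h2be of -0.12 ± 0.13 (SE), with edgeR adjusted p of 0.34 and 0.61. Summed over the 16 genes, H2B signal was 49.7 to 55.5 CPM in young and 43.0 to 45.9 in old mice, without overlap.

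The 2 largest estimated differences among the cluster genes were in H4 genes, which had few reads. Hist1h4i (14 to 41 reads per library) had 1.25, 1.99, 2.06, 1.98 and 1.17 CPM in young mice and 1.27, 0.99, 0.82 and 1.23 in old mice. Young mice 1 and 5 fell within the old range and the other 3 lay above it. Its log2 fold change was -0.64 ± 0.24 (SE), with a 95% interval from -1.15 to -0.13 and an edgeR adjusted p of 0.10. Hist2h4 (16 to 37 reads) had 1.88, 2.05, 2.06, 1.59 and 1.30 CPM in young mice and 1.01, 1.13, 1.09 and 1.47 in old mice. Only old mouse 5 lay above the lowest young mouse. Its log2 fold change was -0.59 ± 0.20 (SE), with an edgeR adjusted p of 0.078. Hist1h4k and Hist1h4h had log2 fold changes of -0.36 ± 0.26 and -0.28 ± 0.21 (SE), and their edgeR adjusted p were 0.41 and 0.45. With each mouse left out these ran from -0.56 to -0.23 and from -0.39 to -0.15. The sum over the 13 H4 genes was 7.35 to 9.71 CPM in young and 6.00 to 7.92 in old mice, with overlap. None of the 4 tested H4 genes passed the edgeR test at this depth, where 2 had an unadjusted p under 0.05. On log2(TPM + 1), limma called Hist1h4i (adjusted p 0.011) and Hist2h4 (adjusted p 0.036).

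Hist2h3c2 was the only cluster H3 gene of 12 that was tested. It had 48 reads in young mouse 4 and 11 to 23 in the other 8 libraries. Its log2 fold change was -0.40 ± 0.32 (SE) with an edgeR adjusted p of 0.46, and -0.058 without young mouse 4. That mouse also had the highest summed CPM over the cluster genes, 109 against 92.6 to 104 in the other young mice.

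Added over all 65 cluster genes, tested or not, young mice had 92.6, 100, 92.7, 109 and 104 CPM and old mice had 79.5, 80.0, 85.4 and 84.2. All old mice were below all young mice, with means of 99.8 ± 7.22 (SD, n = 5) and 82.3 ± 2.97 (SD, n = 4), a difference of -17.6%. Without Hist1h1c and Hist3h2a the sum over the other 63 genes was 61.4 to 72.8 CPM in young and 53.1 to 57.8 in old mice, again without overlap. The H2B genes made up most of this sum, with means of 51.8 CPM in young and 44.5 in old mice, against 65.5 and 55.5 for all 63. The 53 untested genes gave 4.60 to 6.91 CPM in young and 3.17 to 5.64 in old mice, with overlap. The untested gene with the most reads, Hist1h4j, had 70 over the 9 libraries. Hist1h2bj, shown above for its short annotated end, had 3 to 5 reads in each young and 0 to 1 in each old library. It is 1 of 17 untested cluster genes with the core within 50 bases of the end, and not all of these were lower in old mice. Hist1h2ab, for example, had a mean of 0.073 CPM in young and 0.12 in old mice. These sums describe the libraries and carry no test.

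**Figure D3:**
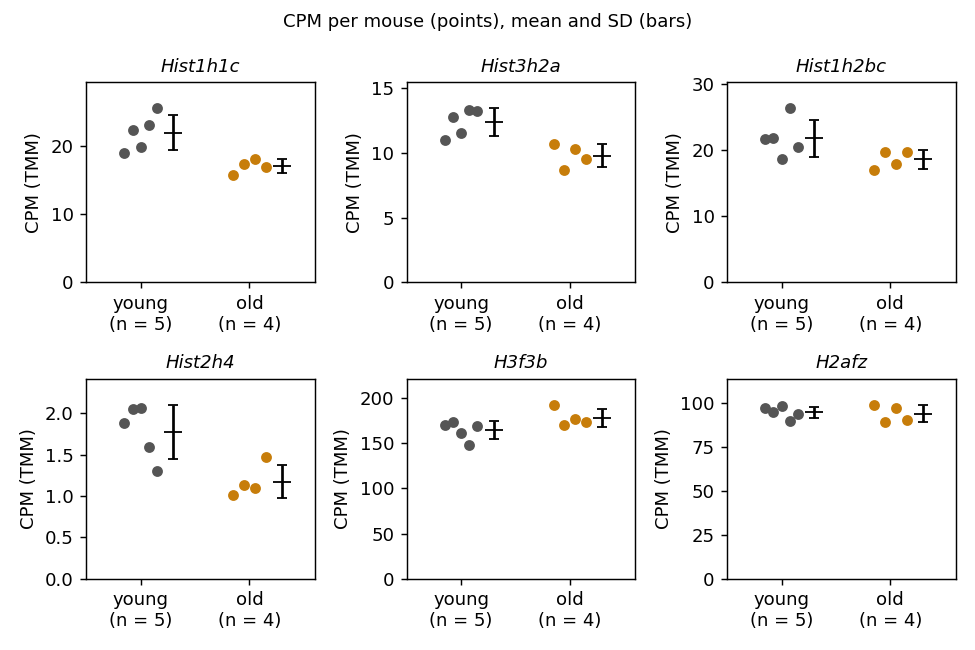
CPM after TMM scaling (y axes, each from 0) in each mouse for 4 cluster genes and 2 variants, young (n = 5) beside old (n = 4), with mean and SD as bars. Hist1h1c and Hist3h2a do not overlap between the ages, Hist1h2bc and Hist2h4 do, and H2afz sits near 95 CPM at both ages.

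The variants made up most of the histone signal, and their sum differed little between the ages. Over the 15 genes it was 630 to 710 CPM in young mice and 642 to 695 in old mice. H3f3b, which like H3f3a encodes H3.3, had the highest level per kilobase of exon (57.4 CPM per kilobase). It was followed by the H2A.Z gene H2afz (53.3) and the H1.0 gene H1f0 (48.0), a linker histone of differentiated cells.

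H3f3b (chr11:116021912-116027962, -) had 171, 174, 162, 148 and 169 CPM in young mice and 193, 171, 177 and 174 in old mice. Old mice 1 and 4 lay above the young range, old mouse 3 within it and old mouse 5 level with its top. Its log2 fold change was 0.12 ± 0.050 (SE), with an edgeR adjusted p of 0.16, and it turned to -0.049 on the log2(TPM + 1) scale, where the median of all genes was -0.14. H3f3a, which encodes the same protein, went from 70.6 ± 3.28 (SD, n = 5) to 67.5 ± 3.13 CPM (SD, n = 4), with a log2 fold change of -0.064 ± 0.045 (SE) and an edgeR adjusted p of 0.41. H3f3b gave 72.1 to 74.3% of the H3.3 signal per kilobase in young and 74.3 to 76.5% in old mice. This split depends on the length taken for each gene, here all its annotated exons merged. Values of the 2 ages meet at 74.3%, held by young mouse 1 and old mouse 5.

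H2afz had 97.2, 94.9, 98.4, 90.1 and 94.1 CPM in young and 99.2, 89.4, 97.4 and 90.6 in old mice. The old values spanned the young ones. The log2 fold change was -0.010 ± 0.042 (SE) with a 95% interval from -0.10 to 0.080 and an edgeR adjusted p of 0.91. H2afv, the other H2A.Z gene, had a log2 fold change of -0.040 ± 0.073 (SE), with an edgeR adjusted p of 0.78. H2afx, whose protein is phosphorylated at DNA breaks, was at 27.5 ± 2.31 CPM (SD, n = 5) in young and 26.9 ± 0.50 (SD, n = 4) in old mice. It had the stem-loop core that most cluster genes have, and its log2 fold change was -0.029 ± 0.061 (SE), with an edgeR adjusted p of 0.81.

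H2afy encodes macroH2A, a histone with a large non-histone domain that is enriched on silent chromatin. It had 95.5 ± 2.40 CPM (SD, n = 5) in young and 93.6 ± 1.82 (SD, n = 4) in old mice, and the log2 fold change was -0.027 ± 0.034 (SE) with an edgeR adjusted p of 0.67. The second macroH2A gene, H2afy2, had 23.8 ± 1.32 CPM (SD, n = 5) and 21.6 ± 1.45 (SD, n = 4). Its log2 fold change was -0.14 ± 0.062 (SE), with an edgeR adjusted p of 0.18. For H2afj the log2 fold change was 0.024 ± 0.066 (SE), with an edgeR adjusted p of 0.86.

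The variant linker histones H1f0 and H1fx had log2 fold changes of -0.13 ± 0.070 and -0.12 ± 0.064 (SE), and both had an edgeR adjusted p of 0.25. H1f0 had 111, 110, 113, 93.3 and 86.7 CPM in young mice, so that young mouse 4 lay within and young mouse 5 below the old range of 88.9 to 97.1. The same 2 young mice had the highest values of Hist1h1c. Variants gave 78.5 to 85.6% of the H1 signal per kilobase in young mice and 84.0 to 86.6% in old mice, with overlap.

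The germ cell variants were at or near 0. H1fnt, known from spermatids, had 1 read in the 9 libraries together, H1foo, known from oocytes, had 6, and H2afb1, H2afb2 and H2afb3 had 0, 2 and 11.

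Per kilobase of exon, variants gave 73.1 to 78.1% of all histone signal in young mice and 78.6 to 80.3% in old mice, and these ranges did not overlap. The cluster sum was lower in old mice, while the variant sum overlapped between the ages. Within H2A the variant share was 93.6 to 95.3% in young and 95.3 to 96.4% in old mice, ranges that met at 95.3%. Within H3 it was 94.2 to 97.8% and 96.5 to 98.3%, with overlap. Since polyA selection leaves out most stem-loop mRNA, these are shares of the captured RNA and not of histone synthesis.

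Genes that make or process histone mRNA were read beside the histone genes. Of 19 tested genes in this list 0 rose and 1 fell, with a median log2 fold change of -0.039. This is near the share over all genes, of which 6.2% were called higher and 4.83% lower. The 1 that fell was Pou2f1, the Oct1 factor of H2B promoters, with a log2 fold change of -0.17 ± 0.045 (SE) and an edgeR adjusted p of 0.028. That call was lost when any of 6 mice was left out in turn (young 1, 3 and 5, old 1, 4 and 5), with adjusted p up to 0.083. Slbp had a log2 fold change of -0.047 (edgeR adjusted p 0.66), and Npat, the coactivator of histone clusters, one of 0.031 (edgeR adjusted p 0.77).

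Histone chaperones escort histones to and from DNA. Of 38 tested genes in this list 2 rose and 1 fell, with a median log2 fold change of 0.049, against 6.2% of all genes called higher and 4.83% called lower. Anp32e, which removes H2A.Z from nucleosomes, rose from 107 ± 4.82 CPM (SD, n = 5) to 123 ± 4.38 (SD, n = 4), with a log2 fold change of 0.20 ± 0.041 (SE) and an edgeR adjusted p of 0.0076. Ubn1, a subunit of the HIRA complex that deposits H3.3, had a log2 fold change of 0.15 ± 0.037 (SE) and an edgeR adjusted p of 0.018. The fold change turned to -0.012 on the log2(TPM + 1) scale, and without the filter on low counts the adjusted p was 0.057. Nap1l3, of the family of H2A-H2B chaperones, fell by 0.21 on the log2 scale, with an edgeR adjusted p of 0.012. Hira itself had a log2 fold change of 0.15 (edgeR adjusted p 0.098), and the H3.3 chaperone subunits Atrx and Daxx had -0.037 and 0.080 (edgeR adjusted p 0.58 and 0.39). On log2(TPM + 1) limma called none of Anp32e, Ubn1, Nap1l3 and Pou2f1, with adjusted p of 0.92, 0.97, 0.27 and 0.48.

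Values of other cell types moved between the groups in the same libraries. In bulk tissue, fewer cells of a type and less RNA per cell cannot be told apart. The counts below stand against 6.2% of all genes called higher and 4.83% called lower. Of 17 tested genes of dividing cells 2 rose and 0 fell (median log2 fold change 0.079), and their summed CPM was 99.0 to 106 in young mice, 102 to 109 in old mice 1, 3 and 5 and 144 in old mouse 4. Of 10 oligodendrocyte precursor genes 0 rose and 3 fell (median -0.14), with sums of 327 to 345 CPM in young and 293 to 307 in old mice. Of 10 immature neuron genes 0 rose and 1 fell. Activated microglia genes had 4 of 11 tested higher, with summed CPM of 60.9 to 75.4 in young mice 1, 2, 3 and 5, 145 in young mouse 4 and 116 to 169 in old mice. Of 10 homeostatic microglia genes 2 were higher, and of 3 tested B and plasma cell genes 1 was. All 7 blood genes were higher in old mice, with sums of 86.7 to 117 CPM in young mice, 130 to 265 in old mice 1, 3 and 5 and 458 in old mouse 4. Old mouse 4 stood apart in the dividing cell and blood lists, and without it Hist1h1c and Hist3h2a again passed the edgeR test and the cluster median was -0.36. The part of these cells in the histone values was not tested.

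Because cluster mRNA mostly lacks a poly(A) tail, RNA known to carry none was read beside it. The sum over 21 such genes, mostly ribosomal repeat RNA, was 13137 to 35617 CPM in young and 19238 to 33284 in old mice. Of 9 tested genes 1 was called higher, against 6.2% of all genes. Estimates below 0 were seen for 0 of the 9, and their median log2 fold change was 0.78. The sum was low in young mice 1 and 3 and old mouse 1 (13137 to 19238) and high in the other 6 (29507 to 35617). Among the 3 low libraries the cluster sum was 92.6 and 92.7 CPM in young mice 1 and 3 and 79.5 in old mouse 1, the only old mouse there. Among the 6 high ones it was 100 to 109 in young and 80.0 to 85.4 in old mice. These groups were formed from the values themselves. Whether the sum of RNA without a tail follows the capture of cluster mRNA was not tested. With RNA lacking a poly(A) tail as a covariate in the edgeR fit, Hist1h1c and Hist3h2a again passed and Hist1h2bc did too, with an adjusted p of 0.036.

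**Figure D4:**
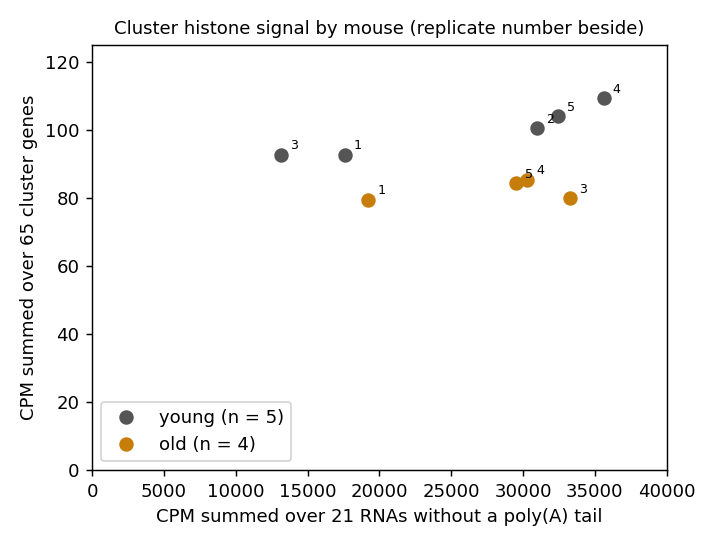
CPM summed over the 65 cluster genes (y axis) against CPM summed over 21 RNAs without a poly(A) tail (x axis), each point being a mouse with its replicate number beside it. On the y axis the old mice (79.5 to 85.4) lie below the young mice (92.6 to 109). Old mouse 1 is the only old mouse at low x values.

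Exons of 8 of the 22 tested histone genes overlap a gene on the opposite strand, H3f3a with H3f3aos and Gm17275 and H2afy2 with Aifm2 among them. How the libraries treated strand is not given in the sources used here, so reads of such pairs may not be separable. Nothing states whether the mice came from separate litters or were prepared on separate days. The p-values set the difference between the ages against the spread between mice of one age. A difference in litter or preparation day between the groups could not be told apart from age.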

How the data were processed

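RNA-seq of whole brain was analysed for 5 young and 4 old mice. The young mice are 3 months old in the labels, while the methods of the paper give 3 or 4 months. Each table had 1 further column of per-mouse values that matched no listed sample, and it was not used.

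The authors trimmed reads with Trimmomatic, aligned them to GRCm38 with STAR and counted uniquely mapped exon reads per gene with featureCounts. The deposited counts are not normalized. The deposited normalized counts are a signal, counts divided by 1 size factor per library, for 17994 genes. The deposited TPM values were made by the authors with gene lengths not given in the sources used here.

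Genes were filtered with filterByExpr (minimum count 10, total 15) which left 18492. The counts were scaled with TMM and compared by the edgeR quasi-likelihood method, with a Benjamini-Hochberg adjusted p threshold of 0.05. The SE was taken from the log2 fold change and the F statistic. Symbols, lengths and transcripts came from GENCODE M21, where 259 of 49315 IDs had no symbol. The length of a gene was that of all its annotated exons merged, so levels and shares per kilobase depend on this choice. It was 3504 bases for H3f3a and 6809 for H2afy, whose longest coding transcripts have 2841 and 2046. Promoters came from RefSeq (GRCm38.p6). The software was edgeR 4.0.16 in R 4.3.3, with sva 3.50.0, limma 3.58.1 and DESeq2 1.42.0 for alternatives. Libraries of one age differed by more than sampling noise (the lowest chi-square over its degrees of freedom was 3.71), so none was a copy of another. This does not show that they came from separate mice, which rests on the paper, where replicates are given as biological. The median SE of a log2 fold change was 0.084. Floors cover counting error only.

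Named genes were those past the threshold, the 8 of each class with the highest CPM per kilobase, the tested H1 genes, H2afy, and for the processing and chaperone lists those past the threshold plus Slbp, Npat, Hira, Atrx and Daxx. Hist1h2be, Hist2h3c2, Hist2h4, H2afy2, Trim17, Hist1h4j, Hist1h2bj, Hist1h2ab and the untested variants were named after their values were seen. The members and lists were chosen with earlier results of these data known. The alternatives were other size factors, DESeq2, robust estimation (added after seeing the data), other filters, limma on TPM and on normalized counts, a replicate block, 2 covariates and each mouse left out.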

Additional observations from a re-analysis of the deposited data

Results flagged for a closer look

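Of 66 combinations of gene and age tested for a mouse far from the rest of its group, 2 stood out, where chance would give about 3.3. In old mice, H2afj had a gap ratio of 0.914, with old mouse 3 lowest at a log2 CPM of 4.98 (31.5 CPM against 37.5 to 38.1 in the other 3). Without it the H2afj log2 fold change was 0.081. In old mice, H2afx had a gap ratio of 0.891, with old mouse 4 highest at a log2 CPM of 4.80 (27.7 CPM against 26.6 to 26.7). Neither gene passed the edgeR test.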

How the results depend on the processing

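DESeq2's Wald test, other size factors, robust estimation, a filter at 1 CPM, limma on the normalized counts and 1 surrogate variable each called Hist1h1c and Hist3h2a, and no other cluster gene. Without a filter on low counts, or with RNA lacking a poly(A) tail as a covariate, Hist1h2bc was called as well. On log2(TPM + 1) and log2(TPM + 0.1) limma called 594 and 600 genes of all, and the median of all genes was -0.14 and -0.16. There the variant median was -0.20 and -0.20, and the cluster median was -0.42 with a pseudocount of 0.1. Hist1h1c and Hist3h2a were not called on TPM (adjusted p 0.057 and 0.14 with a pseudocount of 1), Hist1h4i was called with both pseudocounts and Hist2h4 with 1, so that the cluster count was 2 and 1. The sign turned on these scales for H2afj (-0.14 and -0.15), H3f3b (-0.049 and -0.049), Daxx (-0.081 and -0.084), Hira (-0.020 and -0.021), Npat (-0.13 and -0.13) and Ubn1 (-0.012 and -0.012). The same replicate numbers did not pair mice (correlations of 0.17, -0.12, 0.088 and -0.024). With the replicate block 1687 genes were called, 1 cluster gene (Hist1h1c) was, Hist3h2a had an adjusted p of 0.064 and H2afx turned to 0.021. H2afz turned to 0.0046 with the covariate and 0.015 with the surrogate variable, and Hist1h1e to 0.013 with the latter. With a log2 fold change over 0.58 as well, 495 genes and 0 cluster genes passed in edgeR, where 6 had an unadjusted p under 0.05. With each mouse left out, 1454 to 1942 genes and 1 to 2 cluster genes passed, the cluster median was -0.37 to -0.23 and the variant median -0.054 to -0.013. The sign changed among these for H2afz (-0.033 to 0.012), H2afx (-0.058 to 0.024), H2afv (-0.11 to 0.0026), H2afj (-0.00057 to 0.081), Hist1h1e (-0.39 to 0.030) and Npat (-0.00028 to 0.061). In no setting did a variant gene pass. The cause of these differences was not tested. Cluster genes at 1 to 2 CPM had SE of 0.20 to 0.33. Among them even estimates of -0.59 (Hist2h4) and -0.64 (Hist1h4i) did not pass the edgeR test, with adjusted p of 0.078 and 0.10.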
